A study of Bos taurus with 31 samples.

Results

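The genes described here are the drug and organic ion transporters of the bovine liver. They were taken from the table of gene counts by symbol alone: every gene whose symbol begins with ABCA, ABCB, ABCC, ABCG, SLC22A, SLC47A or SLCO followed by a number, with ABCB11 left out. This gave 66 of the 24616 genes in the table, and 58 of the 66 had the 20 reads in all cows together that were needed to enter a test. ABCC5 occurred as 2 genes with separate identifiers, so the 66 genes carried 65 symbols.

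Hepatocytes take up organic anions and cations from the portal blood through carriers of the SLCO and SLC22A families, which work without ATP. ATP-binding cassette (ABC) pumps of the ABCB, ABCC and ABCG families then move drugs, conjugates, phospholipids and sterols across the canalicular membrane into bile or across the sinusoidal membrane back into blood. Members of the ABCA family move lipids, and several ABCB proteins are found in mitochondria or lysosomes.

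The study asked whether residues of the herbicide glyphosate in feed alter liver function of dairy cows, and whether this depends on how much concentrate the ration holds. Lactating German Holstein cows received a total mixed ration for 16 weeks, and liver tissue of week 16 was sequenced from 31 of them. The glyphosate of the GLY rations came from feed crops treated in the field with a commercial formulation, chiefly straw, while the CON rations held background residues and were therefore low in glyphosate, not free of it. Each was fed with a high (HC, 60% of dry matter) or a low (LC, 30% of dry matter) concentrate feed proportion, which gave the groups CONHC (n = 8), CONLC (n = 8), GLYHC (n = 8) and GLYLC (n = 7), each library being 1 cow. The GLY groups were exposed to contaminated feed and not to the pure compound, and the concentrate proportion changed the whole ration, not a single nutrient.

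The libraries held 11675775 to 36675542 assigned reads, so that 1 read was worth 0.0273 to 0.0856 CPM (counts scaled to a library of 1000000 reads). Levels are given as CPM after trimmed-mean scaling. They follow gene length as well as abundance, and are therefore compared between cows and not between genes. The tissue carried its defining markers: the 10 hepatocyte genes checked summed to 132060 to 222604 CPM, and the group ranges of this sum overlapped. CONLC cow 103 had a sum of stellate and fibroblast genes of 2147 CPM, where the group medians were 174 to 238 CPM. GLYLC cow 912 stood apart from the other cows in many transporter genes. It also held the highest level of 8 of the 10 intestinal epithelium genes found. Most results that rest on it are therefore given with and without it, the choice of this cow having been made after seeing the data. Because whole tissue was sequenced, fewer cells of a type and less RNA per cell cannot be told apart. The strand setting of the counting was not given in the sources used here, so reads of a gene and of an overlapping antisense gene may not be separated.

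Organic anion uptake was the most abundant function by read number. SLCO1B3, a sinusoidal carrier of bile acids, bilirubin conjugates and many drugs, alone held 33.9% of all reads of the 66 genes, and the 6 genes with most reads held 68.1%. Of the 58 tested genes, 41 had a median of at least 1 CPM and 43 had a read in every cow. ABCB5, SLC22A8 and SLC22A12 had no read in any cow, which over 645306753 assigned reads allows up to 3 reads, or 0.00465 CPM. The other untested genes were SLC22A6 and SLC22A11 with 1 read each, ABCA12 with 2, and SLC22A10 and ABCC12 with 3 each. SLC22A6 and SLC22A8 encode the renal organic anion transporters OAT1 and OAT3, and SLC22A12 the renal urate exchanger. These limits cover counting error only, since the reads carried no molecular identifiers. ABCB1 and ABCC4, which encode P-glycoprotein and a basolateral conjugate pump, were not analysed here, since no gene of the table carried these symbols.

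**Figure D1:**
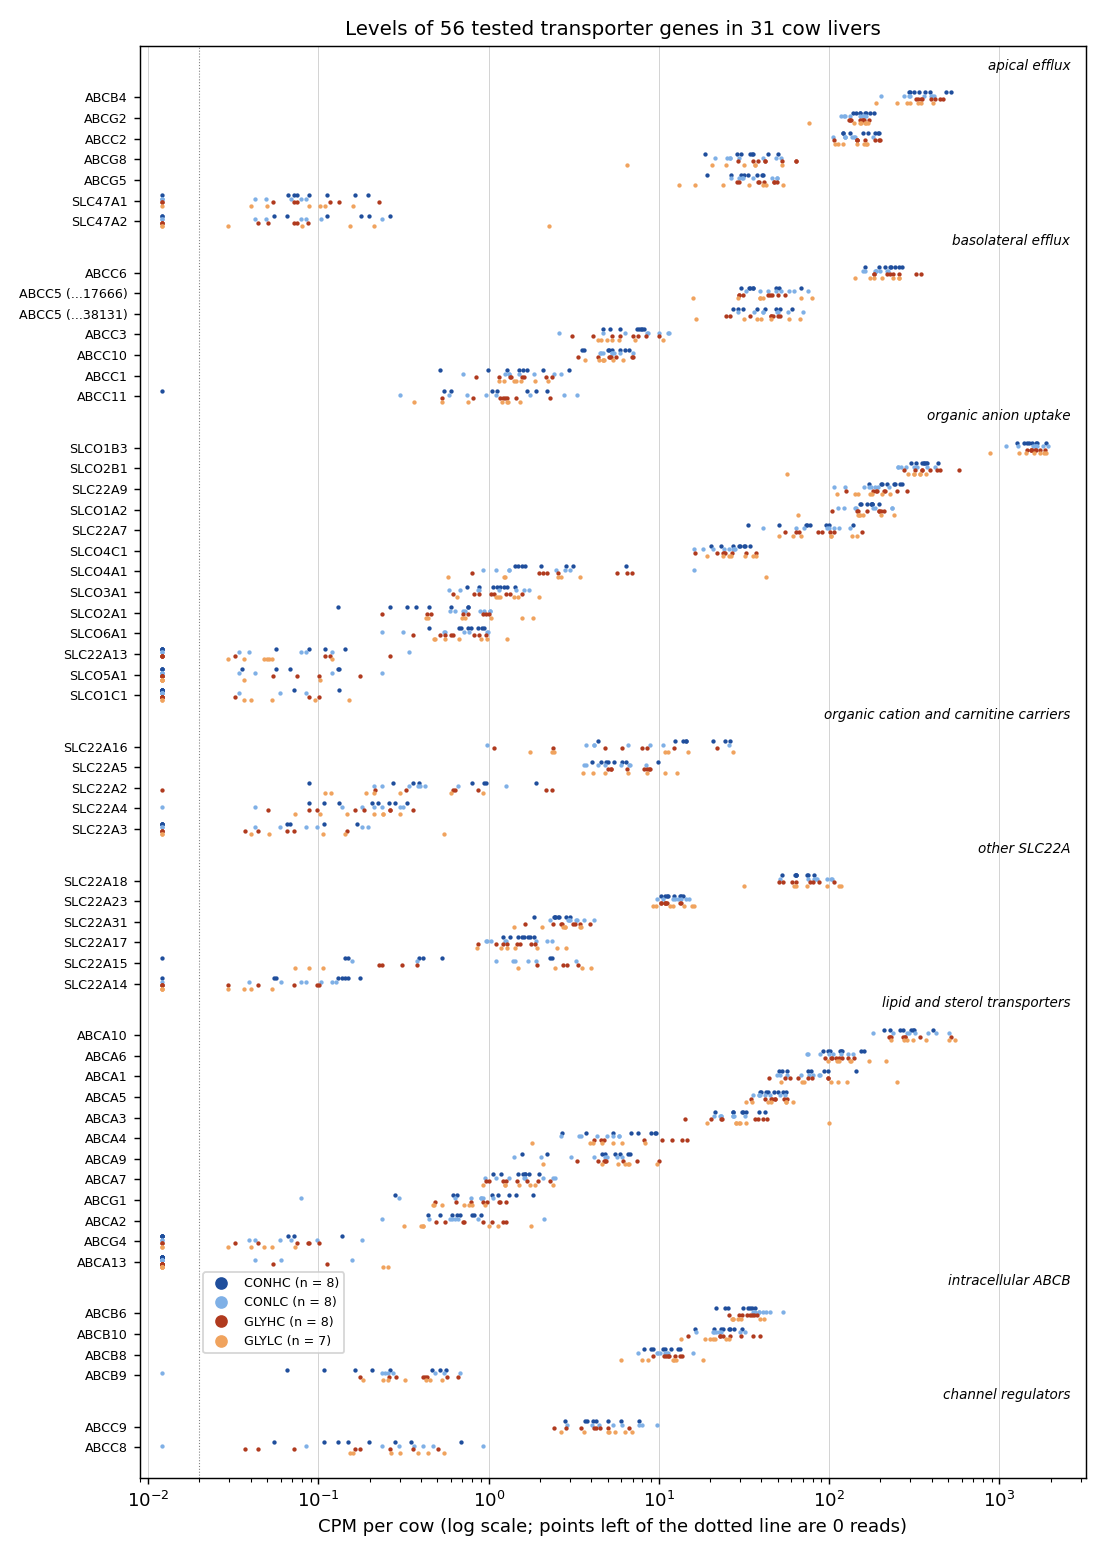
Level of 56 of the 58 tested transporter genes in every cow, as CPM on a log scale, grouped by role and ordered by median within a role; each point is 1 cow, coloured by feeding group, and genes without a read in a cow are drawn left of the dotted line. SLCO1B3 lies highest at 885 to 1937 CPM.

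Transporter levels were close between the feeding groups. Among the 41 genes of at least 1 CPM, the highest group mean was a median of 1.26 times the lowest, with 15 genes under 1.2 times and 6 at 1.5 times or more. The spread between cows of a group had a median coefficient of variation of 28.6% in these genes, reaching 184% for SLCO4A1. Without cow 912 the highest coefficient of variation was 103%, again for SLCO4A1, the median was 26.4%, and 5 genes had a ratio of 1.5 or more, ABCG8 and ABCA1 no longer being among them.

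The ABC efflux genes of the canalicular membrane had reads in every cow. ABCB4 exports phosphatidylcholine into bile, ABCC2 exports glucuronide and glutathione conjugates, and ABCG2 exports sulphates, riboflavin into milk and many drugs. ABCB4 had a lowest, median and highest level of 296, 350 and 520 CPM in CONHC, 203, 330 and 411 in CONLC, 325, 374 and 466 in GLYHC and 189, 298 and 409 in GLYLC. ABCC2 lay at 120, 164 and 195 CPM in CONHC, 105, 130 and 182 in CONLC, 107, 154 and 200 in GLYHC and 108, 146 and 167 in GLYLC. For both genes the HC cows reached further up, yet most cows of all groups shared 1 range. Over all cows the log2 difference of HC to LC was 0.27 (SE 0.11, adjusted p = 0.246 by edgeR's quasi-likelihood test) for ABCB4, with 14 of 16 HC cows above the LC median, and 0.22 (SE 0.09, adjusted p = 0.273 by the same edgeR test) for ABCC2, with 12 of 16 above it. Neither passed the threshold. The lowest ABCB4 level, 189 CPM, was that of GLYLC cow 912, and the ABCB4 difference is not given without it. ABCG2 varied least of the 3, from 117 to 184 CPM in all cows but 912, which had 76.3 CPM. Its log2 difference was 0.11 (SE 0.08) between HC and LC and -0.03 (SE 0.08) between GLY and CON.

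ABCG5 and ABCG8, which together form the sterol exporter of the canalicular membrane, had median levels of 35.5 and 35.7 CPM over the 31 cows. ABCG8 lay at 18.8, 34.7 and 49.9 CPM in CONHC, 21.5, 27.8 and 51.8 in CONLC, 29.2, 42.0 and 64.1 in GLYHC and 6.46, 31.6 and 52.5 in GLYLC, where cow 912 was the lowest of all. Its log2 difference of GLYHC to GLYLC was 0.62 (SE 0.27, adjusted p = 0.345 by edgeR), and 0.44 (SE 0.23, adjusted p = 0.618 by edgeR) without cow 912, where ABCG8 no longer had p under 0.05. ABCG5 differed by 0.05 (SE 0.16) between HC and LC. The multidrug and toxin extruders SLC47A1 and SLC47A2, which exchange organic cations for protons, were near the limit of detection, with medians of 0.0716 and 0.0650 CPM and reads in 24 and 22 of 31 cows.

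Among the basolateral efflux genes, ABCC6, an ATP-releasing liver protein whose loss leads to ectopic mineralization, was most highly counted. It lay at 163, 228 and 266 CPM in CONHC, 157, 188 and 221 in CONLC, 182, 232 and 346 in GLYHC and 142, 203 and 258 in GLYLC. The highest HC cows exceeded every LC cow, while the lower parts of the ranges were shared. The HC to LC difference was 0.24 on the log2 scale (SE 0.09, adjusted p = 0.235 by edgeR), with 13 of 16 HC cows above the LC median. ABCC3, which returns bile acid and drug conjugates to blood, had 2.60 to 11.5 CPM and differed by -0.08 (SE 0.17) for HC to LC and -0.23 (SE 0.18) for GLY to CON. The 2 genes annotated as ABCC5, a cyclic nucleotide and nucleotide analogue pump, followed each other cow by cow, with a ratio of 0.859 to 1.26 and medians of 43.6 CPM for ENSBTAG00000017666 and 41.7 CPM for ENSBTAG00000038131. Whether they are separate genes cannot be told from the counts. ABCC10 (3.37 to 7.03 CPM), ABCC1 (0.521 to 2.94 CPM) and ABCC11 (up to 3.29 CPM, no read in 1 cow) were lower, and none of these had p under 0.05 in any comparison.

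The organic anion uptake list held 18 genes, of which 13 were tested. SLCO1B3 had group means of 1543 ± 189 CPM (SD, n = 8) in CONHC, 1577 ± 272 (n = 8) in CONLC, 1613 ± 123 (n = 8) in GLYHC and 1524 ± 348 (n = 7) in GLYLC, and its log2 differences were 0.02 (SE 0.09) for HC to LC and 0.01 (SE 0.09) for GLY to CON. SLCO1A2, a broad carrier of bile acids and steroid conjugates, had medians of 177, 163, 181 and 152 CPM in CONHC, CONLC, GLYHC and GLYLC and differed by 0.06 (SE 0.13) and -0.05 (SE 0.13) in the same comparisons. For these 2 genes the differences were smaller than their standard errors.

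SLC22A9, an organic anion carrier of the hepatocyte, had higher medians in the HC groups. Its lowest, median and highest levels were 171, 229 and 268 CPM in CONHC, 106, 174 and 224 in CONLC, 125, 201 and 288 in GLYHC and 111, 174 and 229 in GLYLC. The ranges overlapped, but 14 of 16 HC cows were above the LC median. Over all cows the difference was 0.36 on the log2 scale (SE 0.11), with an adjusted p of 0.121 by edgeR, above the threshold of 0.1, and of 0.0592 by DESeq2, below it. Within the CON cows it was 0.43 (SE 0.15, adjusted p = 0.665 by edgeR).

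SLCO2B1, a carrier of steroid sulphates, lay at 303, 361 and 435 CPM in CONHC, 252, 299 and 419 in CONLC, 273, 371 and 580 in GLYHC and 56.3, 317 and 370 in GLYLC. The low end of GLYLC was cow 912 alone, the other 6 lying at 291 CPM or more. HC exceeded LC by 0.32 (SE 0.15, adjusted p = 0.334 by edgeR), and without cow 912 by 0.23 (SE 0.09, adjusted p = 0.258 by edgeR). SLCO2A1, the prostaglandin transporter, was low and differed the other way: medians were 0.410 CPM in CONHC, 0.810 in CONLC, 0.733 in GLYHC and 0.722 in GLYLC. All 8 CONHC cows lay below the CONLC median, with a log2 difference of -0.81 (SE 0.34, adjusted p = 0.763 by edgeR), while the medians of the GLY groups were close. Over all cows HC to LC was -0.65 (SE 0.23, adjusted p = 0.189 by edgeR). GLYLC cow 912 had the highest SLCO2A1 level of all cows, 1.83 CPM, and leaving out 1 cow at a time gave -0.72 to -0.54. SLC22A7, which carries organic anions and cyclic nucleotides, varied from 33.4 to 155 CPM and differed by -0.13 (SE 0.18) for HC to LC. The remaining tested SLCO genes were SLCO4C1 (15.96 to 37.1 CPM), SLCO4A1 (0.574 to 42.7 CPM), SLCO3A1 (0.584 to 1.97 CPM), SLCO6A1 (0.236 to 1.28 CPM) and, with at most 0.236 CPM, SLCO5A1 and SLCO1C1, and with SLC22A13 (at most 0.340 CPM) none of them had p under 0.05.

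Of the organic cation and carnitine carriers, SLC22A5, the carnitine transporter OCTN2, lay at 4.05, 5.26 and 9.83 CPM in CONHC, 3.62, 5.42 and 8.38 in CONLC, 5.05, 7.30 and 8.91 in GLYHC and 3.56, 6.62 and 12.8 in GLYLC. The GLY medians were above the CON medians, with 10 of 15 GLY cows above the CON median and full overlap of the ranges. The difference was 0.34 (SE 0.17), and its adjusted p was 1 by edgeR. Without cow 912 it was 0.28 (SE 0.16) and no longer at p under 0.05. SLC22A2 (OCT2, at most 2.35 CPM) had a log2 difference of 0.90 (SE 0.44, adjusted p = 0.353 by edgeR) for HC to LC, and of 0.81 (SE 0.44), no longer at p under 0.05, without cow 912. SLC22A16, a carnitine carrier, ranged 27.8 times between cows, from 0.983 to 27.3 CPM, with medians of 14.5, 5.36, 7.02 and 10.8 CPM in CONHC, CONLC, GLYHC and GLYLC. SLC22A4 (at most 0.357 CPM) and SLC22A3 (at most 0.548 CPM) were low.

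The other SLC22A genes, whose substrates are less well known, comprised SLC22A18 (31.4 to 117 CPM), SLC22A23 (9.16 to 15.97 CPM), SLC22A31 (1.40 to 4.16 CPM), SLC22A17 (0.851 to 2.85 CPM), SLC22A15 (0 to 4.01 CPM) and SLC22A14 (at most 0.176 CPM). Only SLC22A14 had p under 0.05 in a comparison. Its 39 reads in 31 cows gave a log2 difference of -1.28 for GLY to CON (SE 0.43, adjusted p = 0.832 by edgeR), between group means of 0.0335 and 0.0912 CPM that each correspond to at most a few reads per cow.

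The lipid and sterol list included ABCA4, a flippase of retinoid conjugates known best from photoreceptors. ABCA4 lay at 2.68, 7.23 and 9.57 CPM in CONHC, 2.68, 4.64 and 5.86 in CONLC, 4.15, 9.26 and 14.6 in GLYHC and 1.79, 4.63 and 8.27 in GLYLC. The upper cows of both HC groups exceeded every LC cow, the others lay within the LC range, and 12 of 16 HC cows were above the LC median. HC to LC differed by 0.73 on the log2 scale (SE 0.21). The adjusted p was 0.102 by edgeR, just above the threshold of 0.1. It was 0.0969 with median-ratio scaling in edgeR, 0.0358 by DESeq2, and from 0.0358 to 0.159 over all alternatives. Without cow 912 the difference was 0.65 (SE 0.20, adjusted p = 0.143 by edgeR).

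ABCA1, which loads cholesterol and phospholipid onto apolipoprotein A-I, lay at 50.5, 76.7 and 144 CPM in CONHC, 49.6, 71.8 and 88.8 in CONLC, 44.1, 70.3 and 98.7 in GLYHC and 52.4, 103 and 251 in GLYLC. Cow 912 was the highest at 251 CPM. The differences of -0.65 (SE 0.26, adjusted p = 0.290 by edgeR) for GLYHC to GLYLC and 0.69 (SE 0.26, adjusted p = 0.657 by edgeR) for GLYLC to CONLC were -0.31 (SE 0.22) and 0.36 (SE 0.22) without it and did not keep p under 0.05. ABCG1, another cholesterol exporter, had medians of 1.09, 0.840, 0.954 and 0.720 CPM in CONHC, CONLC, GLYHC and GLYLC, and HC to LC differed by 0.51 (SE 0.23, adjusted p = 0.315 by edgeR), or by 0.48 (SE 0.24), no longer at p under 0.05, without cow 912. ABCA6 had medians of 117, 102, 112 and 132 CPM and differed by 0.43 (SE 0.15, adjusted p = 0.610 by edgeR) for GLYLC to CONLC, or 0.30 (SE 0.15, adjusted p = 1 by edgeR) without cow 912. ABCA3, a surfactant lipid transporter, differed by 0.58 (SE 0.25, adjusted p = 0.801 by edgeR) in that comparison, and by 0.14 (SE 0.19) without cow 912, no longer at p under 0.05. ABCA10 (181 to 551 CPM), ABCA5 (32.5 to 61.0 CPM), ABCA9 (1.42 to 9.96 CPM), ABCA7 (0.925 to 2.44 CPM), ABCA2 (0.236 to 2.13 CPM) and ABCG4 (at most 0.181 CPM) had no p under 0.05. ABCA13, with 20 reads in 7 cows, just the number needed to enter a test, gave an HC to LC difference of -1.67 (SE 0.76, adjusted p = 0.320 by edgeR). It was highest in cow 912 (0.256 CPM), and without this cow it had too few reads to be tested.

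Of the intracellular ABCB genes, ABCB6 encodes a porphyrin transporter, ABCB8 is a mitochondrial protein, ABCB10 takes part in haem synthesis, and ABCB9 carries peptides into lysosomes. ABCB6 was measured at 21.7, 24.4, 25.5, 31.0, 33.5, 34.1, 35.1 and 36.5 CPM in the 8 CONHC cows and at 35.8, 36.6, 38.7, 38.7, 40.6, 42.6, 44.6 and 53.7 CPM in the 8 CONLC cows. Apart from the highest CONHC cow, every CONHC cow lay below every CONLC cow. GLYHC ranged from 25.9 to 37.9 CPM with a median of 33.7, and GLYLC from 26.7 to 41.3 CPM with a median of 29.0. CONLC had the highest median, 39.7 CPM, and the other 3 groups overlapped one another and the lower end of its range.

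ABCB6 had the smallest p of the 58 genes for CONHC to CONLC, with a log2 difference of -0.45 (SE 0.11). Its adjusted p was 0.263 by edgeR and did not pass the threshold, while DESeq2 gave 0.0720 on all cows and 0.0363 on those 2 groups, and the range over alternatives was 0.0363 to 0.556. GLYLC to CONLC was -0.39 (SE 0.12, adjusted p = 0.367 by edgeR). The HC to LC difference was 0.51 larger in GLY than in CON cows (SE 0.16), with an adjusted p of 0.999 by edgeR. These values came from shared CONLC cows and do not stand for separate observations. Without cow 912 the 3 differences were -0.45, -0.35 and 0.47. Sums of the red cell precursor genes, checked because ABCB6 and ABCB10 serve haem synthesis, were 0.149 to 13.0 CPM over the cows, and 3 of these 6 genes, SLC4A1, EPB42 and HBA, had a median of 0. Haem-related ABCB10 had medians of 24.8, 22.2, 24.8 and 20.8 CPM in CONHC, CONLC, GLYHC and GLYLC and differed by 0.38 (SE 0.17, adjusted p = 0.339 by edgeR) for GLYHC to GLYLC, and by 0.30 (SE 0.16), no longer at p under 0.05, without cow 912. ABCB8 (5.96 to 18.1 CPM) and ABCB9 (at most 0.680 CPM) had no p under 0.05. The channel regulators ABCC9 and ABCC8, subunits of ATP-sensitive potassium channels, had medians of 4.53 and 0.262 CPM, and ABCC9 differed by -0.32 (SE 0.17) for HC to LC. ABCC9 was highest in CONLC cow 103 (9.74 CPM), and its difference is not given without that cow.

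**Figure D2:**
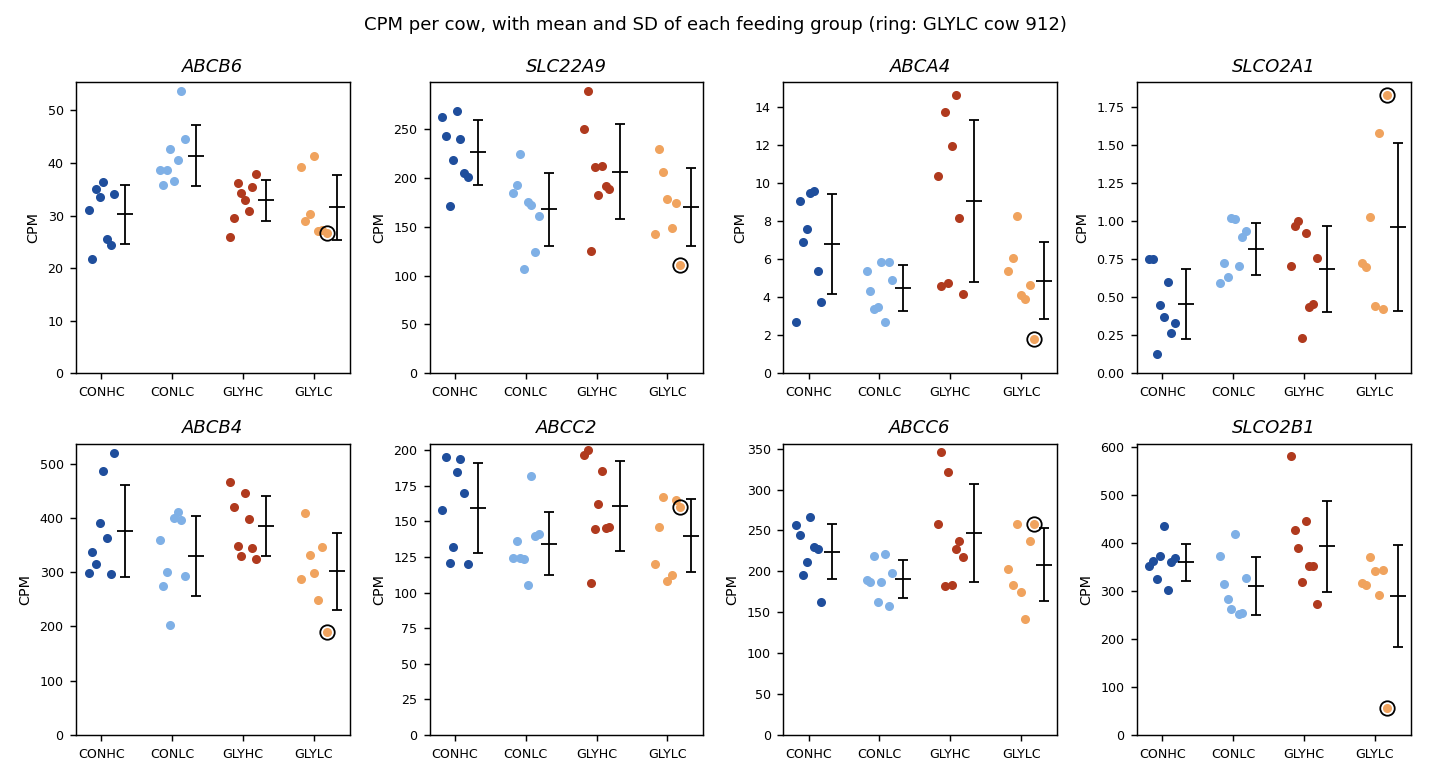
CPM of 8 transporter genes in each cow by feeding group, with the group mean and SD (bars) beside the points and GLYLC cow 912 ringed; vertical axes start at 0. CONLC lies highest for ABCB6 (35.8 to 53.7 CPM), and cow 912 is far below the other GLYLC cows for SLCO2B1 (56.3 CPM).

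For the question of how the concentrate proportion acts on transporter expression over all 31 cows, 11 of 58 genes had an unadjusted p under 0.05, 8 of them with a higher and 3 with a lower level in HC. This was 18.97% of the tested transporters beside 13.7% of all 15916 tested genes. The 8 were ABCA4, SLC22A9, ABCC6, ABCB4, ABCC2, ABCG1, SLCO2B1 and SLC22A2, and the 3 were SLCO2A1, ABCB6 and ABCA13. After adjustment over all genes edgeR called 0 of the 58, beside 1.45% of all genes (231), at an adjusted p under 0.1. DESeq2 on all cows called 2, ABCA4 and SLC22A9, beside 434 of all genes. The median log2 difference was -0.01 for the transporters and -0.01 for all genes. Of all tested genes, 46.0% were higher in HC. Apical efflux genes were higher in HC in 6 of 7 and had a median of 0.22, SLC47A1 and SLC47A2 being near the limit of detection. The 7 tested genes of the basolateral list, which include both ABCC5 genes, were higher in 2 with a median of -0.04. Cow 912, an LC cow, was the lowest of all cows in ABCB4, ABCG2, ABCG5 and ABCG8, and these counts by role are not given without it. Without cow 912, ABCA13 had too few reads to be tested, and 8 of 57 genes had p under 0.05 beside 11.9% of all genes. By edgeR 0 of the 57 were then called, beside 136 of all 15752 genes tested.

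**Figure D3:**
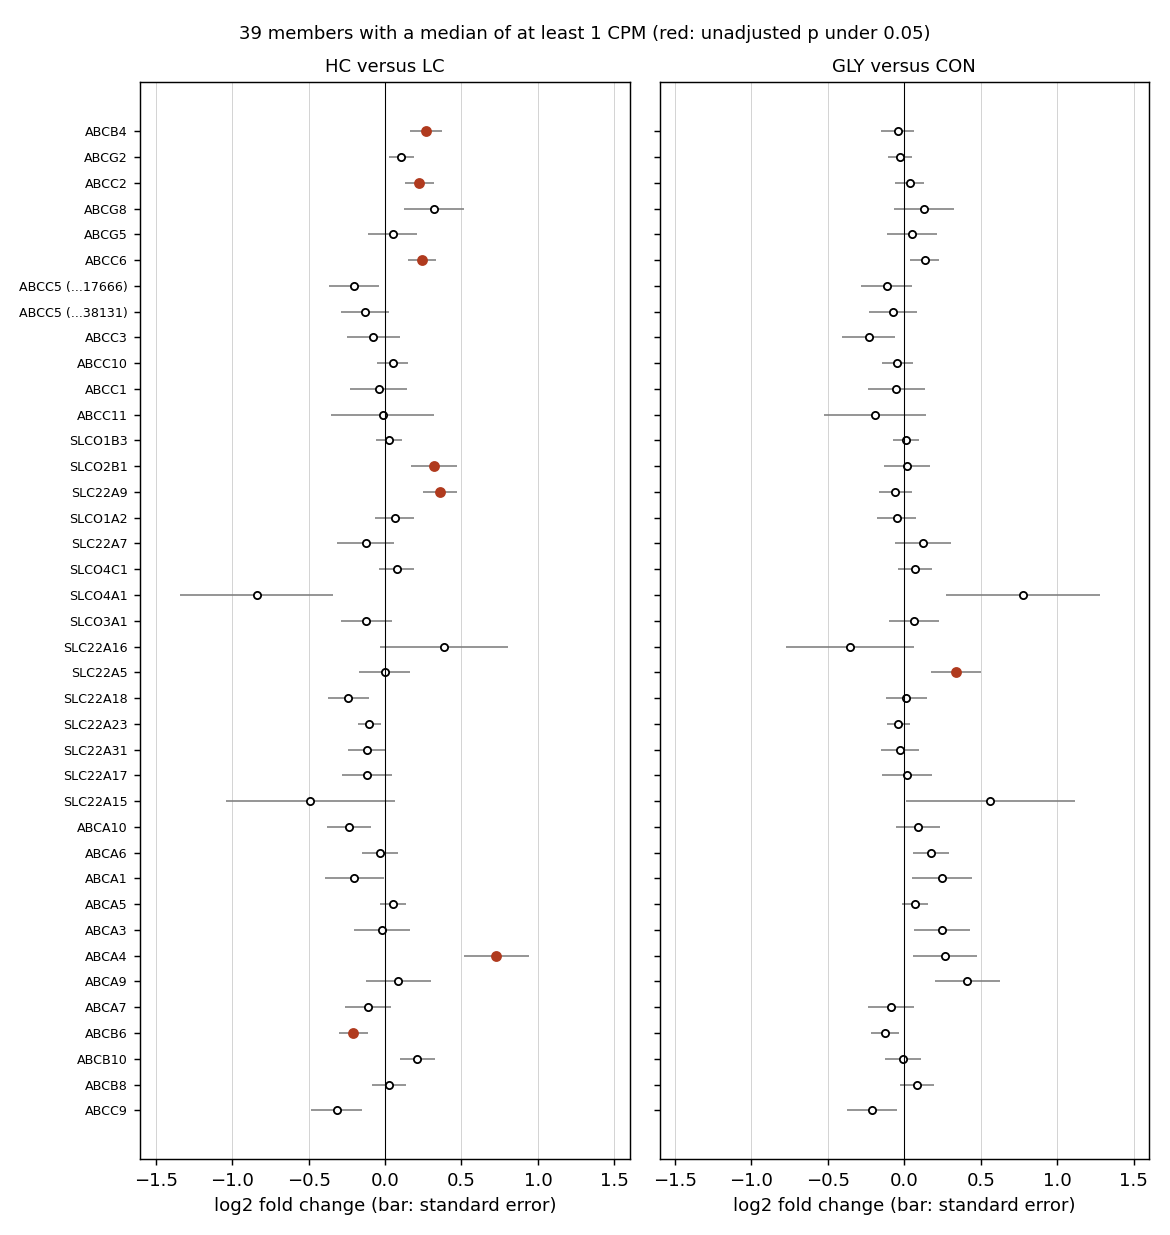
Log2 fold change with its standard error for 39 transporter genes with a median of at least 1 CPM, for HC to LC (left) and GLY to CON (right), in order of role and level; red points have an unadjusted p under 0.05. Most points lie within 1 or 2 standard errors of 0, ABCA4 at 0.73 is the farthest red point for HC to LC, and SLC22A5 at 0.34 is the red point for GLY to CON, which without cow 912 lies at 0.28 and no longer has p under 0.05.

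Within the CON cows, ABCB6 and SLCO2A1 were lower and SLC22A9 was higher in CONHC than in CONLC at p under 0.05, which made 3 of 58 (5.17%) beside 5.96% of all genes. By edgeR 0 of the 58 were called, beside 0% of all genes, and DESeq2 called 1, ABCB6. This stood beside 27 of all genes called by DESeq2 on all cows and 80 on only these groups. Without cow 912, which is in neither of these groups but shares the fit, ABCG2 (0.17, SE 0.08) and ABCA4 (0.58, SE 0.27) joined them and 5 of 57 genes had p under 0.05, beside 7.16% of all genes, of which edgeR then called 7 and none of the 57. The median log2 difference was -0.01, beside -0.01 over all genes. Within the GLY cows, ABCA4, ABCB10, ABCB4, ABCG8 and SLC22A2 were higher and SLC47A2 and ABCA1 lower in GLYHC than in GLYLC, which made 7 of 58 (12.1%) beside 12.5% of all genes. None was called by edgeR (0 of 58, beside 0.201% of all genes) or by DESeq2. Of all genes, DESeq2 called 143 on all cows and 89 on only the compared groups. The median was -0.01 in the transporters and -0.01 in all genes. Without cow 912, ABCA4 (0.73, SE 0.29) and ABCC6 (0.31, SE 0.14) were the 2 genes at p under 0.05, beside 8.37% of all genes. By edgeR 0 of the 57 were then called, and 0 of all 15752 genes. SLC47A2, with a difference of -3.30 (SE 0.93, adjusted p = 0.143 by edgeR), rested on cow 912, which had 2.26 CPM where the other 30 cows had at most 0.264 CPM, and was -0.98 (SE 0.80) without it.

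For the question of how glyphosate residues act, over all cows 2 of 58 genes had p under 0.05, SLC22A5 higher and SLC22A14 lower in GLY, which was 3.45% beside 3.92% of all genes. Without cow 912 SLC22A14 was the 1 of 57 left, beside 2.76% of all genes. By edgeR 0 of 58 were called, beside 0% of all genes, and DESeq2 called 0 of them and 1 of all genes. Under the high concentrate proportion, GLYHC to CONHC, 0 of 58 genes had p under 0.05, beside 2.92% of all genes, and neither edgeR (0% of all genes called) nor DESeq2 on all cows called any of them, DESeq2 calling 0 of all genes. SLC22A14, SLC22A16 and SLCO2A1 had the smallest p there, and the smallest adjusted p of the 58 was 1. Under the low proportion, GLYLC to CONLC, 6 of 58 (10.3%) had p under 0.05 beside 5.65% of all genes: SLC47A2, ABCA6, ABCA1 and ABCA3 higher, ABCB6 and SLC22A14 lower. By edgeR 0 of 58 were called, beside 0.0628% of all genes (10), and DESeq2 on all cows called 0 of them and 4 of all genes. Without cow 912 the genes at p under 0.05 were 3, ABCB6, SLC22A14 and ABCA6, beside 3.07% of all genes. By edgeR 0 of the 57 were then called, and 0 of all 15752 genes. The median log2 differences of the transporters were 0.02, 0.02 and 0.01 in these comparisons, and 0.00, 0.01 and -0.00 over all genes.

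The HC to LC difference itself differed between GLY and CON cows at p under 0.05 in 4 of 58 genes (6.90%), beside 4.21% of all genes. It was more positive in GLY cows for ABCB6 and more negative for SLC47A2, ABCA1 and ABCA6. By edgeR and by DESeq2 0 of the 58 were called, beside 0% of all genes by edgeR and 1 gene by DESeq2. Without cow 912, ABCB6 and ABCG2 (-0.24, SE 0.12) were the 2 genes at p under 0.05, beside 3.47% of all genes. The comparisons between groups share cows, so that their counts are not independent of each other.

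Bile salt carriers, other ABC families and the nuclear receptors that regulate transporters, 23 genes that are not among the 66, were examined beside them, and 22 were tested. For HC to LC 4 of 22 had p under 0.05, beside 13.7% of all genes, and 3 of 22 without cow 912, beside 11.9%. ABCF3, an ABC protein without a membrane part, fell by 0.17 on the log2 scale (SE 0.04, adjusted p = 0.0602 by edgeR) in HC cows and was the only one called. Cow 912 was the highest of all cows for ABCF3 (31.0 CPM) and for NR1H4 (81.5 CPM), and without it ABCF3 differed by -0.16 (SE 0.04, adjusted p = 0.0893 by edgeR) and was still called. SLC51A and SLC51B, the subunits of the basolateral bile acid exporter, had differences of 1.39 (SE 0.48, adjusted p = 0.177 by edgeR) and 0.59 (SE 0.19, adjusted p = 0.148 by edgeR), and NR1H4, the bile acid receptor, -0.21 (SE 0.10, adjusted p = 0.332 by edgeR), or -0.13 (SE 0.08), no longer at p under 0.05, without cow 912. With all cows in the fit, the xenobiotic receptors NR1I2, NR1I3 and AHR had no p under 0.05 in any comparison. Without cow 912, NR1I2 differed by 0.21 (SE 0.07, adjusted p = 0.9999 by edgeR) for GLY to CON and by 0.27 (SE 0.11) for GLYLC to CONLC. Both of these NR1I2 differences then had an unadjusted p under 0.05, and neither was called. TAP2 differed by 0.24 (SE 0.11) and 0.34 (SE 0.16) in these 2 comparisons with all cows, and by 0.24 and 0.35 without cow 912. All 4 TAP2 differences had p under 0.05 and none was called. Of the 22 genes, 1 had p under 0.05 in each comparison with all cows, beside 3.92% and 5.65% of all genes. Without cow 912 it was 2 in each, beside 2.76% and 3.07%.

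GLYLC cow 912 was the outermost cow for a large part of these genes. It lay above all 30 other cows in 11 of the 58 genes and below all of them in 13. How often this cow was outermost over all tested genes was not computed, so these counts cannot be called particular to the transporters. The next cows were CONLC cow 166, highest in 2 and lowest in 7, and GLYLC cow 102, highest in 4 and lowest in 5. Uptake and canalicular genes made up much of the low side: SLCO1B3 (885 CPM beside 1094 or more), SLCO1A2 (65.9 beside 103 or more), SLCO2B1 (56.3 beside 252 or more), ABCB4 (189 beside 203 or more), ABCG2 (76.3 beside 117 or more), ABCG5 (13.2 beside 16.2 or more) and ABCG8 (6.46 beside 18.8 or more). Both ABCC5 genes, ABCA4, ABCA5 and ABCB10 were also lowest in it. On the high side were SLCO4A1 (42.7 CPM beside at most 16.1), ABCA1 (251 beside at most 144), ABCA3 (99.1 beside at most 43.0), ABCA6 (216 beside at most 172) and SLC47A2, together with SLCO2A1, SLCO3A1, SLC22A3, SLC22A17, ABCB8 and ABCA13. Of these, SLCO4A1, SLCO2A1 and SLCO3A1 belong to the uptake list and SLC47A2 to the apical list, so both lists had genes on both sides. ABCC2 (160 CPM) and ABCC6 (258 CPM) lay within the range of the other cows.

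Other genes moved in the same cow. FABP2 reached 206 CPM, BCO1 46.8, VIL1 29.4, MUC13 25.1, KRT20 20.2, OLFM4 11.5 and SI 3.29 CPM in it, and 6 of the 10 intestinal genes had a median of 0 over all cows. The summed intestinal list was 76.0 to 270 CPM in CONHC, 75.9 to 367 in CONLC, 97.6 to 421 in GLYHC and 93.1 to 698 in GLYLC, the last value being cow 912. These sums include APOA4, CDH17 and LGALS4, which had medians of 55.7, 44.1 and 23.9 CPM over all cows. APOA4 was highest in GLYHC cow 37 (366 CPM) and CDH17 in GLYHC cow 131 (79.0 CPM). The hepatocyte sum of cow 912, 132060 CPM, was the lowest of the 31 cows. Yet 3 of the 10 genes in that sum were highest in cow 912: the acute phase gene HP at 19491 CPM, FGB at 42252 CPM and APOA1 at 714 CPM. The part of these in the transporter levels was not tested.

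**Figure D4:**
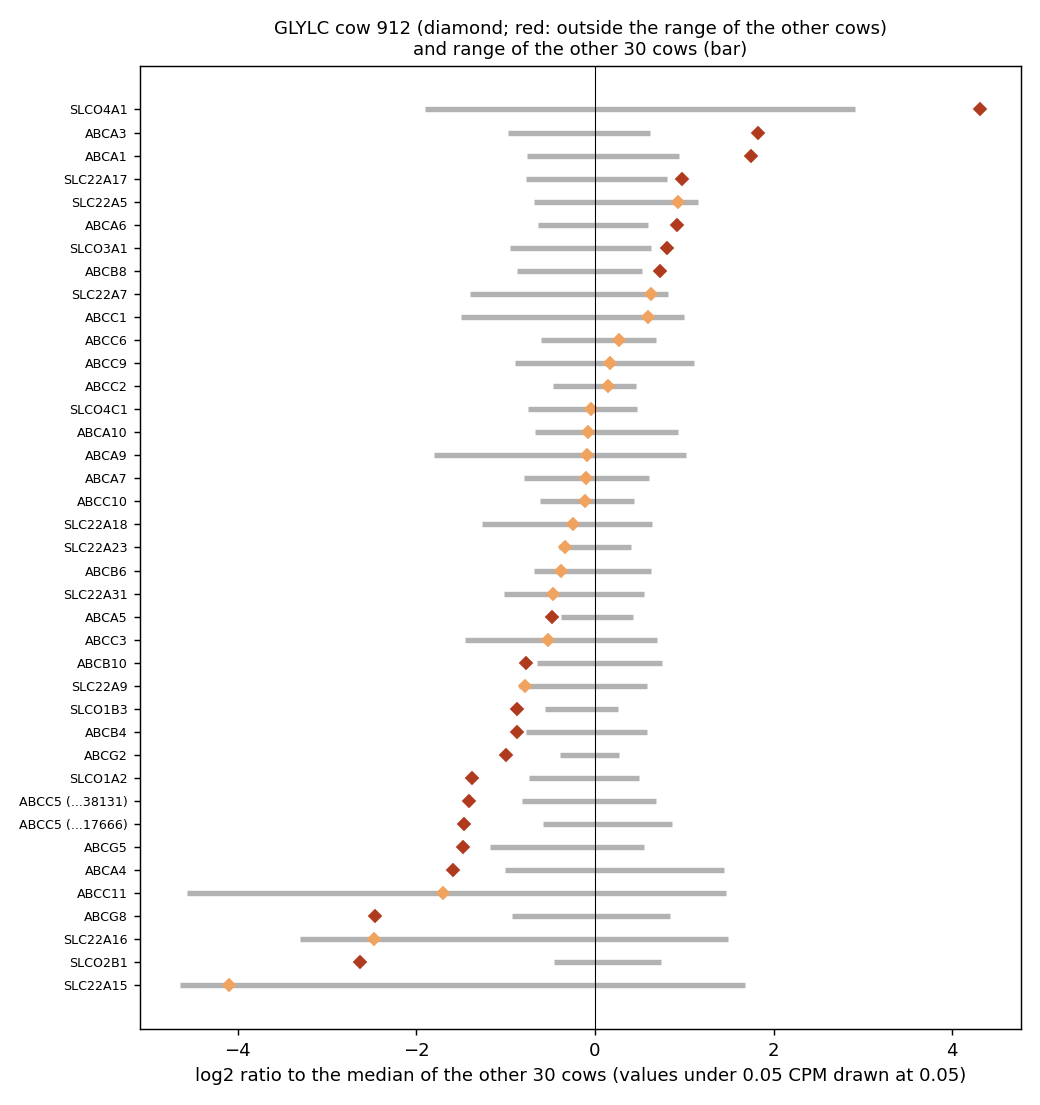
Level of 39 transporter genes in GLYLC cow 912 (diamonds) as the log2 ratio to the median of the other 30 cows, whose range is shown as grey bars; red diamonds lie outside that range. SLCO4A1, ABCA3 and ABCA1 are the outermost genes on the high side, and SLCO2B1 and ABCG8 lie outside on the low side.

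How transporters varied together from cow to cow was examined after removing the group means. ABCG5 and ABCG8 were closely related over the 31 cows, with Pearson's r = 0.903 and Spearman's rho = 0.874, and a permutation p of 1e-05 for each, the smallest that 100000 permutations can give. The adjusted p over the 5 pairs examined was 5e-05, r was 0.869 without the 2 cows farthest from the ABCG5 median, and 0.891 without cow 912. The genes are neighbours in the RefSeq annotation (assembly ARS-UCD2.0). The remaining pairs were weakly related. ABCA1 and ABCG1, both targets of the liver X receptors, had r = -0.17 and rho = -0.15 (permutation p = 0.352 and 0.413). The canalicular pumps ABCB4 and ABCC2 had r = 0.17 and rho = 0.24 (permutation p = 0.367 and 0.197), and the anion carriers SLC22A7 and SLC22A9 r = -0.11 and rho = 0.01 (permutation p = 0.543 and 0.975). The neighbours SLC22A4 and SLC22A5 had r = 0.33 and rho = 0.28 (permutation p = 0.0727 and 0.126), with an adjusted p of 0.182 for r. Without the 2 farthest cows, r was -0.20, 0.25, -0.04 and 0.26 for these 4 pairs in turn.

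Over all 820 pairs of the 41 genes of at least 1 CPM, given here as a description, the median r was 0.02, 4 pairs lay above 0.8 and 16 below -0.6. The 4 were the 2 ABCC5 genes (0.955), ABCG5 and ABCG8, ABCB4 and SLCO1B3 (0.824) and ABCB10 and SLC22A9 (0.823). All values share the libraries and their scaling. Without cow 912, 3 pairs lay above 0.8 and 7 below -0.6. The relation of SLCO2B1 and ABCG2, with r = 0.69 in all cows, was 0.01 without it.

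**Figure D5:**
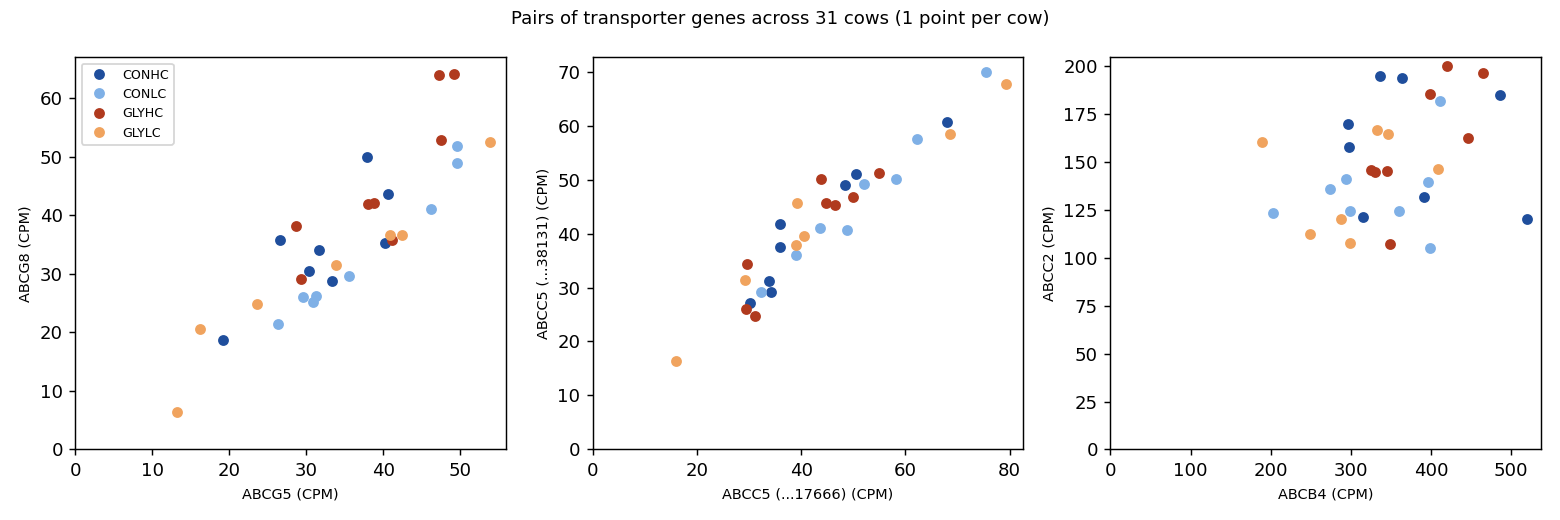
CPM of 3 pairs of transporter genes in the 31 cows, 1 point per cow, coloured by group: ABCG5 and ABCG8 (left), the 2 genes annotated as ABCC5 (middle), and ABCB4 and ABCC2 (right). The first 2 pairs rise together across cows (r = 0.903 and 0.955 after removal of group means), and the third is scattered (r = 0.17).

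Position adds a limit to some of these values. In RefSeq, where all 65 symbols were found, 23 of the genes have another of them as direct neighbour, in 13 pairs. ABCA5, ABCA10, ABCA6 and ABCA9 form 1 run. ABCC1 and ABCC6 and also SLCO4C1 and SLCO6A1 are neighbours. Some genes of such runs have like sequences. Per the methods, uniquely mapped reads were counted, so reads that fit several of them equally well did not enter the counts.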

How the data were processed

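Liver RNA of 31 cows was sequenced from stranded mRNA libraries as paired reads. Per the labels, the authors used Trim Galore for trimming, HISAT2 (2.1.0) for alignment to the bovine build UMD3.1 and HTSeq (0.8.0) for counting per gene, and the deposited table holds raw counts of 24616 genes. The deposited table normalized with DESeq2 was not used. All columns were matched to a cow (0 without one).

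Groups were taken from the sample labels. Genes with at least 20 reads over all cows (15916) were fitted with edgeR 4.0.16 (TMM, quasi-likelihood F test) under R 4.3.3. Comparisons of groups and the interaction used the 4 groups as 1 factor, and HC to LC and GLY to CON an additive model of both factors, always with all cows. P-values were adjusted by Benjamini-Hochberg over all tested genes, and a gene was called at p under 0.05 and adjusted p under 0.1. Log2 fold changes are edgeR estimates. DESeq2 1.42.0, other scalings and filters, a robust fit and leaving out each cow were alternatives. Pairs were correlated on log2 CPM (prior count 2) with 100000 two-sided permutations. The scripts were tested on simulated data.

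Values are given for the genes by role, apart from 2 tested genes that are counted but not reported here, and in more detail the 3 with the smallest p in each comparison, ABCB6 and SLC22A9 (in the study's own gene list, so not independent evidence) and a list of well-known hepatic transporters; other genes with p under 0.05 were added after their values were seen. The genes and lists were chosen with earlier results of these data known. All 105 pairs of cows within a group differed beyond sampling noise (chi-square per gene of 24.5 to 487). No coordinates or sequences are given, since the reference table (ARS-UCD2.0) is of another build.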

Additional observations from a re-analysis of the deposited data

Results flagged for a closer look

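In 108 sets of cows (27 named genes in 4 groups), the highest or lowest cow was set against the rest of its group, and 5 lay apart by Dixon's criterion at the 95% level, which flags about 1 in 20 sets by chance. Of these, 4 were GLYLC cow 912. In it SLCO1A2 was at 65.9 CPM, where the other GLYLC cows had 147 to 241 CPM. SLCO2B1 was at 56.3 CPM beside 291 to 370 CPM, ABCG2 at 76.3 CPM beside 139 to 168 CPM, and SLC47A2 at 2.26 CPM beside 0 to 0.213 CPM. The remaining one was SLC22A16 in CONHC cow 41, at 4.38 CPM beside 12.5 to 26.0 CPM in the other CONHC cows.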

How the results depend on the processing

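edgeR called 0 of the 58 genes in all 7 comparisons, and this held under upper-quartile scaling, both other filters, the robust fit, the fit of only the compared groups and an adjusted p under 0.05. For HC to LC, median-ratio scaling called 1 (ABCA4) and DESeq2 2 (ABCA4 and SLC22A9). For CONHC to CONLC, DESeq2 called 1 (ABCB6) on all cows and 1 on those groups only. Over all genes, DESeq2 on all cows called 434 for HC to LC, 143 for GLYHC to GLYLC and 27 for CONHC to CONLC, beside 231, 32 and 0 by edgeR, and on only the compared groups 80 for CONHC to CONLC, 89 for GLYHC to GLYLC, 3 for GLYHC to CONHC and 2 for GLYLC to CONLC. Leaving out 1 cow gave 0 to 2 called genes for HC to LC (ABCA4 without CONHC 7 or 208, CONLC 169 or 260, GLYHC 37, GLYLC 102 or 147; SLC22A9 without GLYHC 117 or GLYLC 102) and 0 to 1 for GLYHC to GLYLC (SLC47A2 without GLYLC 209 or 544). The median of the latter ranged from -0.0248 to 0.0686, the last without GLYLC cow 42. Of 788 alternative values of 21 single-gene differences, 771 kept direction and side of the threshold, 16 passed it and 1 reversed: SLC47A2 in GLYLC to CONLC was -0.0312 by DESeq2 on those groups, beside 2.39 by edgeR; the cause was not tested. Leaving cow 912 out of the correlations, added after seeing the data, gave r = 0.44 for SLC22A4 and SLC22A5 (rho = 0.38, permutation p = 0.0152 and 0.0407, adjusted p = 0.038 for r). No paired analysis was possible because the numbers in the labels are cow identities that no groups share. Genes under 1 CPM rest on few reads per cow.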

Other observations

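Some transporters differed between cows within every group, and these were chosen after their values were seen. SLC22A15 split the cows: 15 had at most 0.531 CPM and 16 had 1.11 CPM or more, up to 4.01 CPM. The upper cows were 2 of 8 in CONHC, 6 of 8 in CONLC, 4 of 8 in GLYHC and 4 of 7 in GLYLC, so the split ran through all feeding groups. SLCO4A1 was at 16.1 CPM in CONLC cow 260, second to GLYLC cow 912, against a median of 2.20 CPM over all cows. SLC22A18 had its lowest (31.4 CPM) and its highest (117 CPM) cow in the same group, GLYLC cows 102 and 209.

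Single cows were outermost in several genes at once. CONLC cow 166 had the lowest level of SLC22A9 (106 CPM), SLCO4C1 (15.96 CPM), ABCA10 (181 CPM), ABCA6 (73.6 CPM) and SLC22A16 (0.983 CPM). GLYHC cow 37 had the highest level of SLC22A9 (288 CPM), SLCO4C1 (37.1 CPM), ABCB10 (39.1 CPM), ABCC2 (200 CPM), ABCC6 (346 CPM) and ABCA9 (9.96 CPM). Residual SLC22A9 and SLCO4C1 levels had r = 0.79 over the 31 cows and 0.82 without cow 912, given as a description.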
